A study of Mus musculus with 8 samples.

Results

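The regions described here are the places where the authors listed a peak of the histone mark H3K27me3 in mouse embryonic fibroblasts that lack E2f3, in wild-type fibroblasts, or in both. Peaks of both lists that shared at least 1 bp were merged, which gave 18149 regions on the 19 autosomes, out of 26565 autosomal regions with a peak of any antibody in the series. The regions covered 15.0 Mb, had a median length of 561 bp and reached 9259 bp. Of these, 3985 held a peak in both lists, 1864 in the E2f3-null list alone and 12300 in the wild-type list alone. Peak calling used the very reads that are compared here, so a region listed in 1 genotype alone leans towards that library by its choice.

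The study used chromatin immunoprecipitation with sequencing to follow E2F3, HELLS and H3K27me3 in E2f3-/- and wild-type fibroblasts at E13.5. E2F3 is a transcription factor that controls cell cycle genes, and HELLS is a chromatin remodeller related to SNF2. Each immunoprecipitation took 10 µg of antibody, and the libraries were amplified for 22 PCR cycles, cut from a gel at 200 to 300 bp and read for 36 nucleotides from a single end. The H3K27me3 libraries came from E2f3-/- and from wild-type fibroblasts, and the background from IgG. The labels give the genotype as E2f3-/- with no further detail of the allele, and name neither strain nor number of embryos. The cell type was not checked against markers, since these reads hold no expression. There was 1 library per genotype and antibody, so no test of the genotype was possible, and each value compares libraries.

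H3K27me3 is the trimethyl mark on lysine 27 of histone H3. It is written by Polycomb repressive complex 2, whose catalytic subunits are EZH1 and EZH2, and its EED subunit binds the finished mark, which helps it spread to neighbouring nucleosomes. In fibroblasts and other differentiated cells the mark covers genes of development that are kept silent, with the Hox clusters among its best known long domains, as well as short stretches at CpG-rich promoters.

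After 1 read per position and strand was kept, the autosomes held 3609976 reads in the E2f3-null library, 5464042 in the wild-type library and 6978987 in the IgG library. The H3K27me3 regions took up 7.18% of E2f3-null reads (exact 95% interval 7.15 to 7.20), 14.8% of wild-type reads (14.7 to 14.8) and 2.01% of IgG reads (2.00 to 2.02). All intervals cover counting error only, and those of flank ratios count some reads more than once. The IgG files of both genotypes were identical, so IgG stands for the genome in general and not for a genotype. Depth, yield of the immunoprecipitation and genotype cannot be told apart with 1 library each, and in bulk chromatin fewer cells with the mark and less mark per cell cannot be told apart either.

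H3K27me3 was lower in the E2f3-null library over most of its regions when the libraries were scaled by background or by all reads. The direction turned with the scaling: the median log2 ratio over regions was -1.16 by reads outside peaks, -0.18 when regions in both lists were set level, and 0.23 when the 100 strongest wild-type peaks were set level. For the values that follow, unless another scaling is named, reads were scaled by those outside all peaks, which multiplied E2f3-null reads by 1.37. On that scale the regions together held 0.440 times as many E2f3-null as wild-type reads (0.438 to 0.442). With IgG subtracted from both, the ratio was 0.365 (0.362 to 0.367). Enrichment over IgG was 3.72-fold in the E2f3-null library and 8.46-fold in the wild-type library, so the regions stayed enriched without E2f3.

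The typical region was short and held few reads, with medians of 7 E2f3-null, 16 wild-type and 4 IgG reads before scaling. The median log2 ratio, with 0.5 added to both counts, was -1.16, and its quartiles were -1.75 and -0.58. A change was called where the ratio of a region reached 2-fold in either direction with an exact conditional interval that excluded 1. By this rule 7338 regions (40.4% of 18149) were lower and 491 (2.71%) were higher. With the regions in both lists set level 1025 (5.65%) were lower and 1968 (10.8%) higher, and with the 100 strongest wild-type peaks set level 277 (1.53%) were lower and 2787 (15.4%) higher. Among 217000 bins of 10 kb without any peak, with medians of 12 E2f3-null and 15 wild-type reads, 2.48% were lower and 2.97% higher by the same rule. The scaling by reads outside peaks sets such bins level as a whole, so it favours a balance between these shares. A total of 20 reads over both libraries was reached by 9899 regions (54.5%), and 779 regions held 0 E2f3-null reads, while 60 held 0 wild-type reads. The chromosomes had like values, with pooled ratios from 0.417 on chromosome 18 to 0.457 on chromosome 1.

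**Figure D1:**
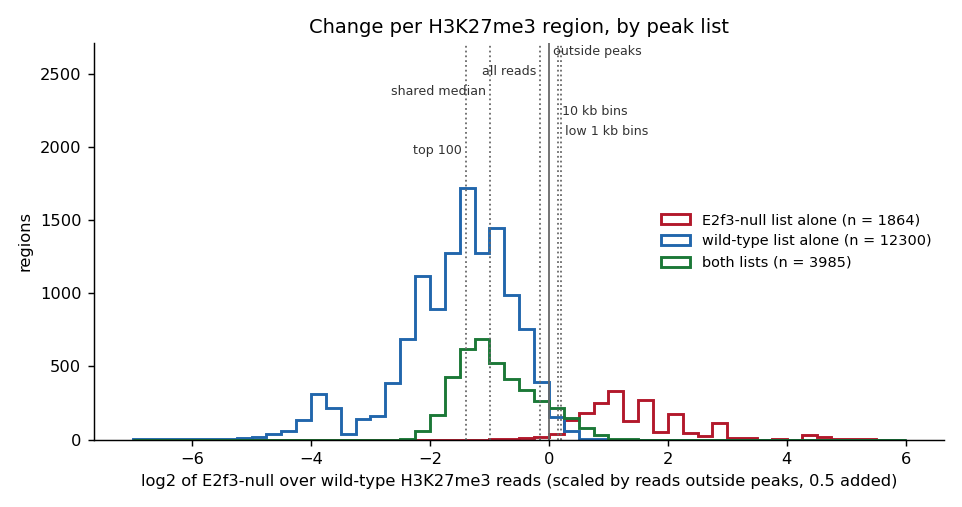
Histogram of the log2 of E2f3-null over wild-type H3K27me3 reads in each region (x axis) against the number of regions (y axis), drawn separately for regions listed in the E2f3-null list alone, the wild-type list alone and both. The solid vertical line marks equal reads under the scaling by reads outside peaks, and each dotted line marks where equality falls under another scaling. Most regions of the wild-type list alone and of both lists lie to the left of the solid line, and the lines for the shared median and the top 100 wild-type peaks pass through the bulk of the regions.

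Regions in both lists had a median of 31 E2f3-null and 91 wild-type reads, and a pooled ratio of 0.449 (0.446 to 0.451). Among these 3985 regions, 1995 were lower and 5 higher. Regions of the wild-type list alone had a ratio of 0.352 (0.350 to 0.355). They kept an enrichment over IgG of 2.09-fold in the E2f3-null library, against 5.92-fold in the wild-type library. Regions of the E2f3-null list alone had medians of 8 E2f3-null and 5 wild-type reads and a ratio of 2.31 (2.25 to 2.36), and 486 of the 491 higher regions were among them.

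The higher regions rested on few reads. Their medians were 9 E2f3-null, 2 wild-type and 1 IgG reads, their median length was 409 bp, and 487 of the 491 were shorter than 1000 bp. A total of 20 reads was reached by 55 of them, and the most E2f3-null reads in any of them was 39. In the authors' deposited table, 65.0% of the 6958 E2f3-null peaks and 0 of the 16700 wild-type peaks had a false discovery rate over 5%. Among E2f3-null peaks this held for 93.5% of the 1864 without a wild-type peak and 54.6% of the 5094 with one, in the authors' deposited table.

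The first property examined was the width of a region. Wide regions were lower more often than narrow ones, and they held more reads with which to show it. The share called lower was 21.1% under 500 bp (7733 regions), 44.6% from 500 to under 1000 bp (6112), 67.5% from 1000 to under 2000 bp (3102), 73.0% from 2000 to under 4000 bp (1072) and 80.8% at 4000 bp or more (130). Median wild-type reads over the same classes were 9, 20, 71, 213 and 423.5. The median log2 ratio differed far less, at -1.13, -1.13, -1.25, -1.27 and -1.23. The share called higher was 4.90%, 1.77%, 0.129%, 0% and 0% in the same order.

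Pooled over reads, the ratio was 0.570 under 500 bp (0.563 to 0.578), 0.466 from 500 to under 1000 bp (0.462 to 0.471), 0.418 from 1000 to under 2000 bp (0.415 to 0.422), 0.414 from 2000 to under 4000 bp (0.410 to 0.417) and 0.415 at 4000 bp or more (0.409 to 0.422). The last 2 classes did not differ beyond their intervals. The ratio in regions of 2000 bp or more, divided by that in regions under 1000 bp, gave a quotient of 0.826 (0.817 to 0.835), which does not depend on the scaling of whole libraries. It was below 1 on each of the 19 autosomes, between 0.710 on chromosome 3 and 0.884 on chromosome 4.

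This dependence on width moved with the choice of list. With the whole wild-type list taken as its own set of peaks, the quotient was 0.938 (0.927 to 0.949), and with the whole E2f3-null list it was 0.626 (0.615 to 0.637). With E2f3-null peaks above a false discovery rate of 5% left out of the union it was 0.967 (0.956 to 0.978). Regions with an E2f3-null peak and no wild-type peak made up 19.3% of the regions under 500 bp, 5.91% from 500 to under 1000 bp and 0% from 2000 bp upwards. Among regions listed in the wild-type list alone the ratio was 0.361, 0.369, 0.329 and 0.315 over the first 4 classes of width. Among regions in both lists it was 1.04, 0.657, 0.457, 0.420 and 0.416. The 116 regions under 500 bp that entered both lists thus had nearly equal scaled reads in both libraries. They held 1092 E2f3-null and 1434 wild-type reads in all. A region this short had to pass the peak cutoff in both libraries with few reads, so its choice favours a ratio near 1. The part of this choice in the fall with width among regions in both lists was not tested.

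**Figure D2:**
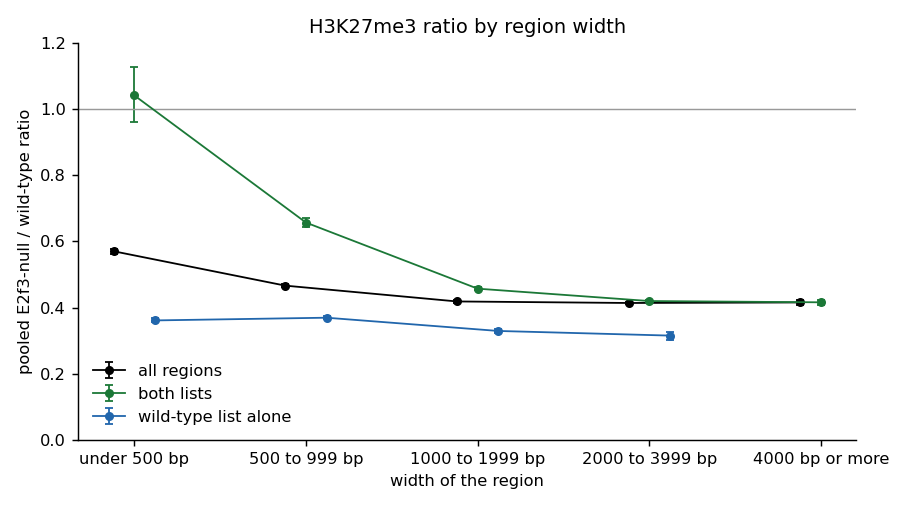
Pooled ratio of E2f3-null to wild-type H3K27me3 reads (y axis, scaled by reads outside peaks) in 5 classes of region width (x axis), for all regions, for regions in both lists and for regions of the wild-type list alone. Bars are 95% intervals of counting error, and classes of under 20 regions are not drawn. All regions go down to a plateau near 0.415, regions in both lists start at 1.04, and regions of the wild-type list alone stay between 0.315 and 0.369.

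Regions wide enough for a ratio of their own nearly all had fewer E2f3-null reads under the scaling by reads outside peaks. Of 1191 regions of 2000 bp or more with at least 100 reads over both libraries, 1189 had a ratio below 1, the interval lay below 1 in 1149 and above 1 in 0, and 881 were lower by 2-fold or more. Ratios ran from 0.145 to 1.13 with a median of 0.413 and quartiles of 0.347 and 0.505. With the 100 strongest wild-type peaks set level, the regions of 2000 bp or more had a pooled ratio of 1.09 and a median of 0.13 on the log2 scale, and 0.25% of them were lower and 2.50% higher. The positions of single regions are given on mm9, and genes are not named because the gene table used here is of another build.

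The 5 lowest of these wide regions all held a peak in the wild-type list alone. The region on chromosome 19 from 61300880 to 61303284 had 13 E2f3-null, 123 wild-type and 52 IgG reads, a ratio of 0.145 (0.0749 to 0.257), and its E2f3-null reads were 0.504 times the scaled IgG reads. Next came chromosome 1 from 75418004 to 75420245, where 26 E2f3-null reads stood against 226 wild-type reads and the ratio was 0.158 (0.101 to 0.237). A region without others within 50 kb, on chromosome 10 from 114237098 to 114239676, held 45 E2f3-null and 310 wild-type reads, and its ratio was 0.199 (0.142 to 0.272). The remaining ones had 12 E2f3-null and 92 wild-type reads on chromosome 5 from 140446936, and 20 E2f3-null and 135 wild-type reads on chromosome 11 from 74978628. In 3 of the 5, on chromosomes 19, 5 and 11, the E2f3-null reads did not exceed the IgG reads, while the wild-type reads were 3.48 to 4.52 times as many.

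The 5 highest of the wide regions all held peaks in both lists and lay near other regions. Both traits were common at this width. Of the 1072 regions of 2000 to under 4000 bp, 91.1% held peaks in both lists and 90 had 0 neighbours. The region on chromosome 19 from 45219897 to 45222964 had 72 E2f3-null and 87 wild-type reads, a ratio of 1.13 (0.817 to 1.57), with 23 other regions within 50 kb. Farther along the same chromosome, from 45314953 to 45317307, lay 50 E2f3-null and 69 wild-type reads, and the ratio was 0.992 (0.675 to 1.45). On chromosome 2 the regions from 36064735 and from 105525897 had 51 E2f3-null against 69 wild-type reads and 57 E2f3-null against 81 wild-type reads. On chromosome 3 the region from 88031918 had 42 E2f3-null against 58 wild-type reads. Each of these 5 intervals included 1 under the scaling by reads outside peaks. With the regions in both lists set level, their ratios were 1.91 to 2.25 and each interval lay above 1, with a lowest bound of 1.29. The 5 lowest and the 5 highest regions were picked by these same ratios, and the intervals do not allow for that choice.

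The narrow regions with the most reads ranged widely. On chromosome 8 from 26148712 to 26149599 the libraries held 56 E2f3-null and 128 wild-type reads, and the ratio was 0.599 (0.429 to 0.826). A region of chromosome 2 from 105516087 to 105517077 held 27 E2f3-null and 155 wild-type reads, and its ratio was 0.238 (0.152 to 0.361). This region overlapped a wild-type E2F3 peak, and the E2F3 antibody had 7 E2f3-null and 39 wild-type reads there. On chromosome 10 from 80805537 there were 36 E2f3-null and 131 wild-type reads, and on chromosome 11 from 85651196 32 E2f3-null and 135 wild-type reads. The fifth lay in a block of chromosome 2 described further on.

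The second property was the number of other H3K27me3 regions within 50 kb. Isolated regions were lower by more than regions in dense neighbourhoods. The pooled ratio was 0.375 with 0 neighbours (0.370 to 0.380, 2556 regions), 0.398 with 1 (0.393 to 0.404, 2051 regions), 0.426 with 2 to 4 (0.422 to 0.431, 3947 regions) and 0.468 with 5 or more (0.465 to 0.470, 9595 regions). None of these intervals overlapped its neighbour. With IgG subtracted the ratios were 0.262, 0.303, 0.347 and 0.405. The median log2 ratio was -1.58, -1.37, -1.25 and -1.0, and the share called lower was 55.9%, 46.9%, 41.6% and 34.4%.

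Both libraries were more enriched over IgG in dense neighbourhoods, and the E2f3-null library more so. With 5 or more neighbours the enrichment was 4.44-fold in the E2f3-null library and 9.49-fold in the wild-type library. With 0 neighbours it was 2.45-fold in the E2f3-null library and 6.53-fold in the wild-type library. The ratio in dense over that in isolated regions gave a quotient of 1.25 (1.23 to 1.26). It was above 1 on each of the 19 autosomes, from 1.15 on chromosome 15 to 1.39 on chromosome 16.

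The quotient of dense over isolated regions was also above 1 within each class of width. It was 1.40 under 500 bp, 1.58 from 500 to under 1000 bp, 1.24 from 1000 to under 2000 bp and 1.06 from 2000 to under 4000 bp (1.02 to 1.09), and at 4000 bp or more only 2 isolated regions remained. Within regions in both lists, with neighbours counted among all regions, it was 1.10 (1.07 to 1.12). Among regions with a wild-type peak and no E2f3-null peak it was 1.42 (1.38 to 1.45). Among regions with an E2f3-null peak and no wild-type peak, where ratios are above 1 by their choice, it was 0.722 (0.662 to 0.787). With each whole peak list as its own set of regions it was 1.24 for wild type and 1.06 for E2f3-null. The steps were uneven within regions in both lists, with ratios of 0.422 with 0 neighbours, 0.414 with 1, 0.439 with 2 to 4 and 0.463 with 5 or more. At 2000 to under 4000 bp they were 0.400, 0.379, 0.407 and 0.423. Sorting all regions by the distance to the nearest other region gave the same order of levels as over all neighbour classes. The ratios were 0.463 under 2 kb, 0.427 from 2 to 5 kb, 0.401 from 5 to 20 kb, 0.383 from 20 to 100 kb and 0.374 at 100 kb or more.

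The wide isolated regions with the most reads show how far single places varied within a class. The region on chromosome 15 from 76346465 to 76354527 had 197 E2f3-null, 795 wild-type and 117 IgG reads, a ratio of 0.339 (0.289 to 0.397). Its single wild-type peak of 8063 bp faced 3 E2f3-null peaks of 4709 bp in all. Chromosome 6 from 120441385 to 120444320 held 114 E2f3-null and 500 wild-type reads, and the ratio there was 0.312 (0.252 to 0.383). Chromosome 2 from 146909293 to 146911817 held 219 E2f3-null, 517 wild-type and 39 IgG reads, with a higher ratio of 0.580 (0.493 to 0.681) and peaks of 2432 bp in E2f3-null and 2318 bp in wild-type cells. The interval of this last one did not overlap those of the other 2.

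**Figure D3:**
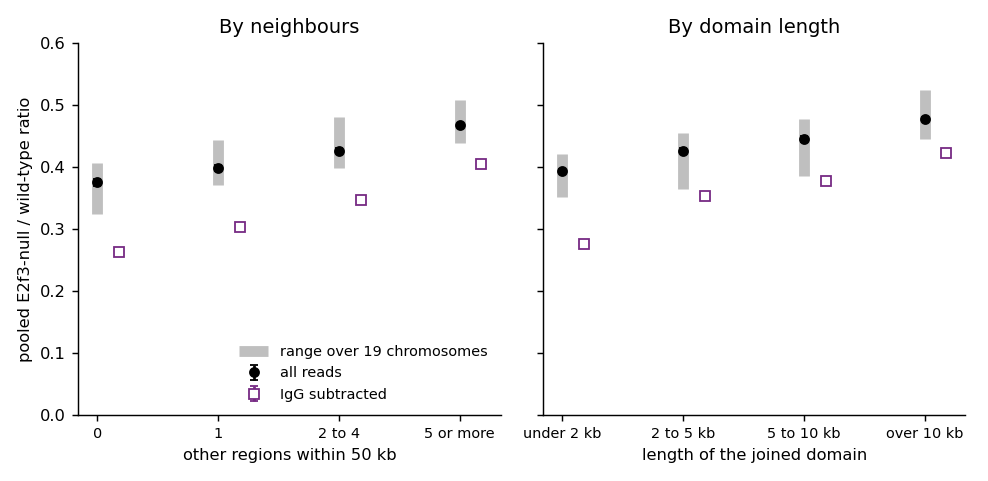
Pooled ratio of E2f3-null to wild-type H3K27me3 reads (y axis, scaled by reads outside peaks) by the number of other regions within 50 kb (left) and by the length of the joined domain a region belongs to (right). Black points use all reads, open squares have IgG subtracted, bars are 95% intervals that are mostly smaller than the points, and grey bars span the 19 autosomes for all reads. Over all regions the ratio goes up in steps with both properties, from 0.375 to 0.468 on the left and from 0.394 to 0.478 on the right.

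The third property was the length of the domain formed when regions were joined across gaps of up to 5 kb. The 18149 regions formed 9696 domains. Regions in longer domains kept more of their reads. Their pooled ratio was 0.394 in domains under 2 kb (0.390 to 0.397), 0.426 from 2 to 5 kb (0.423 to 0.430), 0.446 from 5 to 10 kb (0.441 to 0.450) and 0.478 over 10 kb (0.475 to 0.482). Regions in domains over 10 kb divided by those in domains under 2 kb gave a quotient of 1.21 (1.20 to 1.23), above 1 on each autosome and between 1.12 and 1.41. With the whole E2f3-null peak list as the set of regions, this quotient turned to 0.974 (0.959 to 0.990). For regions in both lists it was 1.04 (1.02 to 1.05) when domains were built from those alone. With domains built from all regions, the ratios of regions in both lists were 0.447, 0.426, 0.441 and 0.469 over the same 4 classes. Such regions made up 10.1% of the class under 2 kb and 34.3% of that over 10 kb.

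Domains also differed in what lay between their peaks. Counted over whole spans, gaps included, the ratio was 0.398 under 2 kb, 0.467 from 2 to 5 kb, 0.519 from 5 to 10 kb, 0.544 from 10 to 20 kb and 0.567 over 20 kb. Inside domains over 10 kb the gaps alone had a ratio of 1.04, and there the enrichment over IgG was 3.21-fold in the E2f3-null library and 3.09-fold in the wild-type library. Gaps are by construction the stretches that neither list called, and the scaling sets reads outside all peaks equal as a whole. Of 515 domains over 10 kb, 137 (26.6%) were lower over the whole span and 0 higher, and 474 (92.0%) held at least 1 E2f3-null peak. E2f3-null peaks covered 22.3% of these spans and wild-type peaks 44.9%. Of 6790 domains under 2 kb, 20.8% held an E2f3-null peak. E2f3-null peaks covered 18.5% of these shorter spans and wild-type peaks 89.3%. A long domain joins more regions, so it can hold at least 1 peak more readily than a short one.

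The 5 longest domains kept between 0.523 and 0.656 of the scaled wild-type reads, beside 0.567 over all 156 domains above 20 kb, under the scaling by reads outside peaks. With the regions in both lists set level their ratios were 1.04 to 1.30, and the intervals on chromosomes 15 (1.17 to 1.35), 11 (1.08 to 1.27) and 3 (1.20 to 1.41) lay above 1. The longest lay on chromosome 15 from 102739957 to 102815610 and held 1126 E2f3-null, 2437 wild-type and 440 IgG reads, a ratio of 0.633 (0.589 to 0.679). Its 41 regions held 30 E2f3-null and 36 wild-type peaks, and 10 of the regions were lower and 1 higher. The next, on chromosome 11 from 96122563 to 96195812, had 847 E2f3-null, 1962 wild-type and 399 IgG reads, a ratio of 0.591 (0.545 to 0.641), with 18 of its 39 regions lower. The domain on chromosome 2 from 74485445 to 74554766 had 1054 E2f3-null, 2761 wild-type and 469 IgG reads, and its ratio was 0.523 (0.486 to 0.561). The domain on chromosome 6 from 52153383 to 52216647 had 848 E2f3-null, 2160 wild-type and 485 IgG reads, a ratio of 0.537 (0.496 to 0.582). The fifth, on chromosome 3 from 87998299 to 88059666, had 843 E2f3-null, 1760 wild-type and 363 IgG reads, a ratio of 0.656 (0.603 to 0.712).

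In the GRCm38.p6 gene table, chromosomes 15, 11, 2 and 6 are those that carry the Hoxc, Hoxb, Hoxd and Hoxa clusters, with 9, 10, 9 and 11 genes. Hox genes set position along the body axis and are classic Polycomb targets. The positions of these clusters were not compared with the domains, because the builds differ. In all 5 domains the E2f3-null reads stood between 3.53-fold and 5.16-fold above IgG and the wild-type reads between 6.56-fold and 8.67-fold.

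Just outside the called peaks the libraries held nearly equal reads under the scaling by reads outside peaks, while both stayed above IgG. In the first 500 bp beyond a region with 5 or more neighbours the ratio was 1.06 (1.05 to 1.07), with an enrichment over IgG of 2.98-fold in the E2f3-null library and 2.82-fold in the wild-type library. In the first 500 bp beyond a region with 0 neighbours it was 1.04 (1.01 to 1.07), with 1.86-fold in the E2f3-null library and 1.78-fold in the wild-type library. These flanks leave out every called peak, so a stretch enriched in 1 library far enough to be called cannot be in them. The scaling also sets the reads outside all peaks equal as a whole, so flank ratios near 1 are largely set by it. Under the larger factors that set H3K27me3 peaks level, each of these ratios is higher.

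Farther out the ratio outside peaks depended on the neighbourhood. Around regions with 5 or more neighbours it was 0.925 at 10 to 15 kb and 0.854 (0.852 to 0.856) at 75 to 100 kb, where the enrichment over IgG was 1.22-fold in the E2f3-null library and 1.43-fold in the wild-type library. Around regions with 0 neighbours it was 0.948 at 10 to 15 kb and 0.952 (0.947 to 0.958) at 75 to 100 kb, with 1.01-fold over IgG in the E2f3-null library and 1.06-fold in the wild-type library. Flanks of nearby regions overlap, so a read near several regions was counted more than once. Summed over all regions, the flanks within 50 kb held 7507622 wild-type reads, while 4562881 lay outside peaks. The intervals of the flank ratios treat repeated reads as separate and are therefore too narrow. Bins of 100 kb were also sorted by how many of their 1 kb bins touched an H3K27me3 region. The reads outside peaks had a ratio of 1.06 where none did, 0.948 at 1 to 2 such bins, 0.903 at 3 to 10, 0.856 at 11 to 20 and 0.899 above 20. This ratio was thus lowest in the class before the densest. When each class of neighbours was scaled by its own reads outside peaks within 50 kb, the ratios were 0.391 with 0 neighbours, 0.427 with 1, 0.482 with 2 to 4 and 0.513 with 5 or more. The order of the classes was thus as before under this local scaling, and the spread between them was wider.

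**Figure D4:**
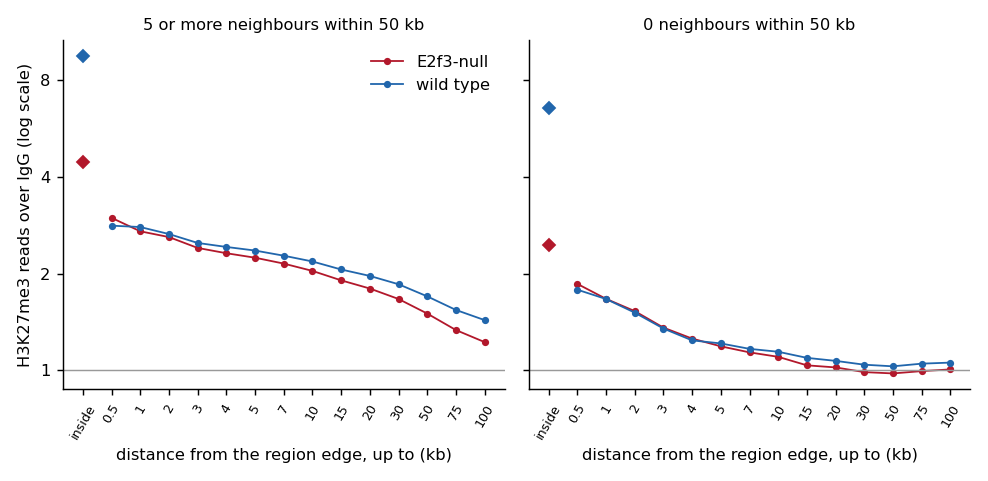
H3K27me3 reads over scaled IgG reads (y axis, log scale) inside regions (diamonds) and outside every called peak at rising distance from a region edge (points, x axis gives the upper limit of each step in kb), for regions with 5 or more (left) and 0 (right) other regions within 50 kb. Red is the E2f3-null library and blue the wild-type library. The libraries are far apart inside regions, at 4.44 in E2f3-null and 9.49 in wild-type cells on the left and 2.45 in E2f3-null and 6.53 in wild-type cells on the right. They are close together outside, where the scaling sets the reads equal as a whole.

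Within wide regions the ratio was lowest in the middle. Each region of 2000 bp or more was cut into 5 parts of equal length, and the ratio was 0.491, 0.391, 0.387, 0.385 and 0.497 from one end to the other. In regions of 1000 to under 2000 bp it was 0.559, 0.387, 0.385, 0.383 and 0.530. Within the 204 E2f3-null peaks of 2000 bp or more it was 0.432, 0.390, 0.395, 0.399 and 0.454. The edges are set by the peak calls of the libraries themselves, and how far that sets the rise towards the edges was not tested.

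Where both lists held a peak, the E2f3-null one was usually shorter. Over the 3985 shared regions E2f3-null peaks covered 70.9% of the length that wild-type peaks covered, and they were shorter in 3343 regions, longer in 636 and equal in 6. In 665 regions 1 wild-type peak faced several E2f3-null peaks, while in 172 several wild-type peaks faced 1 E2f3-null peak. In regions of 4000 bp or more there were 60 of the first kind and 4 of the other. In the 2946 regions with 1 peak in each list, the deposited summits lay a median of 111 bp apart, and 70.1% lay within 250 bp. The deposited heights at these summits, which are not scaled for depth, had medians of 8 in the E2f3-null library and 23 in the wild-type library. The E2f3-null library held fewer reads, and the part of depth in these lengths was not tested.

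The level of the change, unlike its order across neighbourhoods, depended on how the libraries were scaled. Beside the scaling by reads outside peaks, scaling by all autosomal reads used a factor of 1.51 and gave 6125 lower (33.7%) and 637 higher (3.51%) regions, with a median log2 ratio of -1.02. Scaling by 10 kb bins without peaks and with middling IgG used 1.23 and gave 8637 lower (47.6%) and 345 higher (1.9%), with a median of -1.32. Scaling by the 1 kb bins that were least enriched over IgG used 1.19 and gave 9246 lower (50.9%) and 338 higher (1.86%), with a median of -1.37. Under these scalings and the one by reads outside peaks, 90.6% to 96.5% of the called regions were lower.

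Scalings that took H3K27me3 peaks themselves as the constant gave another picture. Setting the median of the regions in both lists to 1 used a factor of 2.72. Setting the 100 strongest wild-type peaks equal used 3.60. The lower share of the calls was 34.2% under the median of shared regions and 9.04% under the strongest peaks. These scalings take out any change that the chosen peaks share. No spike-in was named in the labels, so the data hold no outside standard for the total amount of the mark.

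The order of the classes held under each of the 6 scalings, since a single factor cannot change it. Under the median of shared regions the pooled ratio was 0.928 with 5 or more neighbours and 0.745 with 0. Under the strongest wild-type peaks it was 1.23 with 5 or more neighbours and 0.987 with 0. Of the isolated regions 10.7% were lower and 8.45% higher under the median of shared regions, and of the dense regions 3.75% were lower and 11.8% higher. The pooled ratio of isolated regions thus stayed below 1 under all 6 scalings, though only just so under the strongest peaks, where that of dense regions turned above 1. Under the strongest peaks 2.90% of the isolated regions were lower and 9.39% higher.

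**Figure D5:**
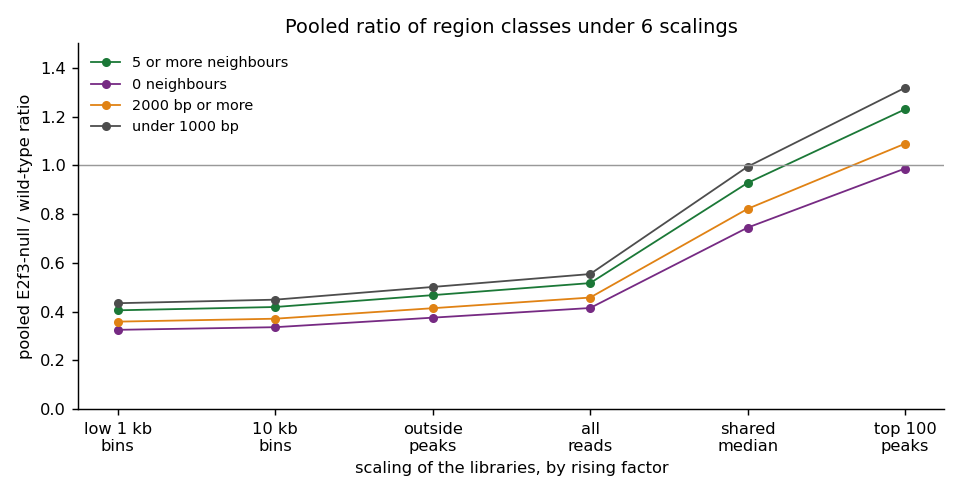
Pooled ratio of E2f3-null to wild-type H3K27me3 reads (y axis) in regions with 5 or more neighbours, with 0 neighbours, of 2000 bp or more and under 1000 bp, under 6 scalings of the libraries ordered by their factor (x axis). Lines join the values of 1 class, and the grey line marks equal reads. All classes lie below 0.56 under the 4 scalings by background or all reads, and between 0.745 and 1.32 under the 2 scalings by H3K27me3 peaks.

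The other antibodies of the study were read at the same regions. HELLS reads had a pooled ratio of 1.01 (1.00 to 1.02), with 0.826% of regions lower and 0.54% higher. E2F3 antibody reads had a ratio of 0.709, with 5.07% lower and 0.369% higher. Pooled over all regions, the HELLS libraries of the same genotypes were thus nearly level where the H3K27me3 libraries differed. Only 7.94% of the regions held a HELLS peak of either genotype. The HELLS ratio was 1.16 (1.15 to 1.18) in these 1441 regions and 0.932 (0.923 to 0.941) in those without one. Across the neighbour classes the E2F3 antibody ratio was 0.602 with 0 neighbours, 0.646 with 1, 0.707 with 2 to 4 and 0.790 with 5 or more, the same order of levels as for H3K27me3. The share of regions with a wild-type E2F3 peak fell over these classes, at 20.6%, 15.3%, 9.20% and 5.40%. The E2F3 antibody ratio was 0.513 in regions with such a peak and 0.891 in those without. The HELLS ratio ran from 1.05 with 0 neighbours to 0.980 with 5 or more. The part of the E2F3 antibody signal in the H3K27me3 order was not tested beyond the split that follows.

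A wild-type E2F3 peak overlapped 1720 of the regions (9.48%). Those regions had an H3K27me3 ratio of 0.397 (0.393 to 0.400), and 79.7% of them were lower, while the other 16429 had 0.455 (0.453 to 0.458), and 36.3% were lower. Regions with an E2F3 peak were also wider, with a median of 1280 bp, and held medians of 22 E2f3-null and 78 wild-type reads. Only 0.523% of them had an E2f3-null peak and no wild-type peak, against 11.3% of the others. IgG reads per kb were 14.2 with an E2F3 peak and 8.33 without. The part of listing, width and IgG density in these ratios and in the quotients that follow was not tested. The quotient of dense over isolated regions was 1.10 (1.07 to 1.13) with an E2F3 peak and 1.28 (1.26 to 1.30) without. Width went the other way inside this group. With an E2F3 peak the quotient of wide over narrow regions was 1.21 (1.17 to 1.25), and without one it was 0.806 (0.796 to 0.815). Among the 1441 regions with a HELLS peak it was 1.12 (1.08 to 1.16).

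IgG density moved with the H3K27me3 ratio as well. When regions were ranked by IgG reads per length into 4 classes of nearly equal number, the ratio was 0.678, 0.551, 0.441 and 0.374 from low to high IgG. With IgG subtracted the ratios were 0.658, 0.496, 0.373 and 0.277, though this used the same IgG counts that ranked the regions. Regions with an E2f3-null peak and no wild-type peak, with ratios above 1 by their choice, made up 21.5%, 10.5%, 6.35% and 2.69% of the classes. Median length was 423, 506, 646 and 912.5 bp. The part of listing and width in the order by IgG was not tested. Within the 4 classes the quotient of dense over isolated regions was 1.23, 1.38, 1.17 and 1.10. The quotient of wide over narrow regions was 0.898, 0.946, 0.937 and 1.10. The order by neighbours therefore held in each IgG class, whereas the order by width turned in the class of highest IgG.

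One stretch of chromosome 2 stood apart from the rest. From 103560001 to 103600000 the E2f3-null H3K27me3 library held 46 reads, the wild-type one 918 and IgG 187. In the 40 kb before it the counts were 113 E2f3-null and 169 wild-type, and in the 40 kb after it 38 E2f3-null and 68 wild-type. The E2F3 antibody had 98 E2f3-null and 118 wild-type reads in the block, and HELLS had 104 E2f3-null and 115 wild-type reads, so the gap was seen with H3K27me3 and not with these antibodies. All 20 H3K27me3 regions in it were lower and 0 held an E2f3-null peak. They include the narrow region from 103565722 to 103566455, with 2 E2f3-null, 167 wild-type and 4 IgG reads, a ratio of 0.0164 (0.00197 to 0.0602). The block was singled out after its values were seen, and it held 0.106% of the wild-type reads in all regions. Without it the quotient of wide over narrow regions was 0.823.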

How the data were processed

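Per the submitters' processing notes the deposited reads, 1 aligned read per line, lie on mm9, and the aligner is not given in the sources used here. The authors called peaks per library with MACS 1.4.0beta at a p cutoff of 1e-05, against controls of 3791438 (E2f3-null) and 3444066 (wild-type) IgG tags, per the file headers. The deposited peak tables hold a tag count, a score (10 times the negative log10 of p), a fold enrichment ratio and the false discovery rate as a percent. Summit heights are a deposited tag signal without scaling. These values only describe or filter peaks.

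From the reads, 1 per position and strand was kept, moved 60 bp towards the fragment centre and counted in autosomal regions merged at 1 bp. The libraries were scaled by reads outside every peak of the series. Pooled ratios and regions carry exact conditional binomial 95% intervals. Intervals of quotients and of IgG-subtracted ratios come from the read sums. Neighbours were counted between centres. The regions named are the 5 longest domains, the 5 lowest and 5 highest ratios among regions of at least 2000 bp and 100 reads, the 5 regions under 1000 bp with most reads, and the 3 isolated regions of at least 2000 bp with most reads. The members, classes and named regions were chosen with earlier results of these data known. Python 3.11.15, numpy 2.4.6, pandas 2.3.3, scipy 1.17.1 and matplotlib 3.10.9 were used.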

Additional observations from a re-analysis of the deposited data

How the results depend on the processing

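No paired analysis was possible because each genotype had 1 library. For the same reason no replicate could be left out. Median log2 ratios were -1.02 (all reads), -0.18 (shared median), -1.32 (10 kb bins), -1.37 (low 1 kb bins), 0.23 (top 100 peaks, which turned the sign) and -1.19 (unshifted reads). With IgG subtracted, only the log2 of the ratio pooled over all regions was taken. It was -1.46 and is not a median over regions. Lower and higher calls were 1025 and 1968 under the shared median, and 277 and 2787 under the top 100 peaks.

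Choosing other peaks moved more values. With peaks of score 100 or more, 4567 regions were lower and 56 higher, the median was -1.27, and the quotients of wide over narrow, long over short and dense over isolated were 0.943, 1.16 and 1.16. With regions in both lists, and domains and neighbours recounted among them, 1995 were lower and 5 higher, the median was -0.99 and the quotients 0.621, 1.04 and 1.15. With the wild-type list, 1 was higher, the median was -1.29, and the quotients of width and domain were 0.938 and 1.25. With the E2f3-null list, 2106 were lower, the median was -0.28, and the quotients were 0.626, 0.974 (turned) and 1.06. With at least 20 reads, 55 were higher, and the quotients of width and domain were 0.868 and 1.23.

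IgG subtraction gave quotients of 0.884, 1.54 and 1.54. The width quotient was 0.728 for the outermost classes and 0.779 in a central 500 bp window. The domain quotient was 1.17 with gaps of up to 2 kb, and 1.54 in regions of 500 to under 1000 bp, where the neighbour quotient was 1.58. The neighbour quotient was 1.27 within 20 kb and 1.22 within 200 kb. Chosen after seeing the data, local scaling gave 0.816, 1.16 and 1.31. Leaving out E2f3-null peaks with a false discovery rate over 5% gave 66 higher regions, a median of -1.28, and quotients of width and domain of 0.967 and 1.26. Leaving out the block on chromosome 2 was also chosen then. The causes were not tested. Across these settings the neighbour quotient stayed above 1 and the width quotient below 1. With medians of 7 E2f3-null and 16 wild-type reads per region, single narrow regions are limited by depth.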
